A study of Mus musculus with 12 samples.

Results

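The integrin chains outside the CD18 (β2) group were examined in RNA-seq data of bone marrow-derived dendritic cells (BMDCs). The question was whether any of them was higher in cells with a conditional knockdown of CD18. The genes were taken by symbol and comprised the β chains Itgb1, Itgb3, Itgb5 and Itgb7 and the α chains Itga4, Itga5, Itga6, Itgav and Itgae, that is 9 of the 41709 genes in the deposited tables. BMDCs were grown from bone marrow in GM-CSF for 10 days, enriched for MHCII+ cells with magnetic beads, and lysed either unstimulated or after 100 ng/mL LPS. The labels give 24 h for LPS, whereas the study's methods describe an overnight treatment. All mice were homozygous for an Itgb2 allele with a floxed exon 3. CD18fl/fl mice carried no Cre, and CD18CD11c cKO mice carried Cre under the CD11c (Itgax) promoter, so that deletion depended on the activity of that promoter in culture. The 4 groups were CD18fl/fl unstimulated, CD18fl/fl LPS, CD18CD11c cKO unstimulated and CD18CD11c cKO LPS, with 3 libraries each. The labels number the libraries 1 to 3 in every group and do not say whether these came from separate animals, so that p-values measure the spread between these libraries, which may be technical in part.

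Integrins are receptors of 1 α and 1 β chain that link the cell surface to matrix or to other cells, and a chain reaches the surface only in a pair. β1 pairs with many α chains and binds fibronectin, laminin or VCAM-1 depending on its partner, αv with β3 or β5 binds vitronectin and takes part in the uptake of apoptotic cells, and β7 pairs with α4 for homing to gut or with αE (CD103) for contact with E-cadherin. CD18, in contrast, pairs with the α chains of the Itgal, Itgam, Itgax and Itgad genes. Surface protein was not measured here.

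Each library held between 29689149 and 34037178 reads assigned to genes. Levels are given as CPM, read counts scaled to library depth with TMM factors over all 12 libraries, always in the order of replicates 1, 2 and 3. In bulk libraries, fewer cells of a type and less RNA per cell cannot be told apart. All 10 dendritic cell markers listed (among them Itgax, Cd74, Flt3 and Zbtb46) had at least 3 reads in every library, with a summed level between 16078 and 45733 CPM. Replicate 3 stood apart in all 4 groups, and the first principal component of the deviations from the group means held 61.7% of their variance. In replicate 3, the summed level of 7 markers of type 1 conventional dendritic cells lay between 238 and 829 CPM, against 1014 to 4987 CPM in replicates 1 and 2. Markers of lymphoid cells (9 genes) summed to 2.04 to 9.35 CPM in replicate 3 and to 6.90 to 111 CPM in the others. Over all libraries, markers of neutrophils and their precursors summed to 10.8 to 1331 CPM, with the highest value in replicate 1 of unstimulated CD18fl/fl and at most 195 CPM elsewhere, those of mast cells or basophils to 14.3 to 169 CPM, those of eosinophils to 0.33 to 136 CPM, and those of fibroblasts or endothelial cells to 2.28 to 80.0 CPM. Since deviations of same-numbered libraries were correlated in every comparison, each test was run in a plain form and in a form with a block for replicate number, which compares libraries within their number. Calls were also examined with 1 replicate number left out. Itgb2 served as the reference for the CD18 knockdown. It had 382, 420 and 379 CPM in unstimulated CD18fl/fl and 120, 163 and 189 CPM in unstimulated CD18CD11c cKO BMDCs, and after LPS 167, 171 and 267 CPM against 114, 89.7 and 119 CPM. The counts include reads from all exons of Itgb2, thus also those outside the deleted exon.

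Among the examined chains, the differences between genotypes were mostly in the direction of lower levels in CD18CD11c cKO BMDCs, whereas LPS lowered some chains and raised others. Promoter sequences are shown for 3 chains that stood out in the LPS comparisons described further on, Itgb7 and Itgb5, which fell, and Itga5, which lay higher. RefSeq promoter entries (table of build GRCm38.p6) matched 6 of the 9 chains, namely Itgb1, Itgb5, Itgb7, Itga4, Itga5 and Itgav. The stretch from 250 to 61 bases before the RefSeq start site is given, which lies outside every annotated exon and was located in GRCm39 by an exact match. Each is written 5′ to 3′ on the strand of its gene, and capitals mark a GC box.
Itgb7, chr15:102140431-102140620, minus strand: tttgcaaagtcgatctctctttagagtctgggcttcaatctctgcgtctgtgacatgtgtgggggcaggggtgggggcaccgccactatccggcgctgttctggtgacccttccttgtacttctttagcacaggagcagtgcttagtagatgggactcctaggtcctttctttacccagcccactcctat
Itgb5, chr16:33649785-33649974, plus strand: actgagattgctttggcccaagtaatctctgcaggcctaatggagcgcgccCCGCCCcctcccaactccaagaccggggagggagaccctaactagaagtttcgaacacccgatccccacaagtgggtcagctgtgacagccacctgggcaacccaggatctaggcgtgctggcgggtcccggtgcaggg
Itga5, chr15:103275279-103275468, minus strand: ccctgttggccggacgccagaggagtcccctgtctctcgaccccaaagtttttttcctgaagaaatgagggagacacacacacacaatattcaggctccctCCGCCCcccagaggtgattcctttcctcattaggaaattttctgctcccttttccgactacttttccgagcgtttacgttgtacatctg

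Motifs were searched on both strands as AP-1 (TGANTCA), PU.1 (GAGGAAG), GC box (GGGCGG) and NF-κB (by its usual degenerate consensus). The GC box occurred once in the Itgb5 stretch, 199 to 194 bases before the start site, and once in the Itga5 stretch, 149 to 144 bases before it, both on the opposite strand. It was present in 22.8% of 32851 promoters of the table over the same stretch. The letters of the AP-1, PU.1 and NF-κB motifs were not in any of the 3 stretches, and were present in 5.22%, 7.71% and 5.42% of all promoters, respectively. GC content was 53.7% for Itgb7, 62.1% for Itgb5 and 51.1% for Itga5.

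Levels of the chains differed widely. Per kb of exon, Itgb1 was the most abundant of the 9 in unstimulated CD18fl/fl BMDCs with 83.3 ± 26.9 CPM per kb (SD, n = 3), below Itgb2 with 129 ± 7.55 CPM per kb (SD, n = 3). Itgb5 and Itgb7 followed with 26.0 ± 13.5 and 25.7 ± 9.93 CPM per kb (SD, n = 3 each), which did not differ beyond their spread. Itga4, Itga6, Itga5 and Itgb3 lay between 9.78 and 4.18 CPM per kb, Itgav at 2.05 ± 0.809 and Itgae at 0.322 ± 0.0646 CPM per kb (SD, n = 3 each). All 9 chains passed the filter on low counts in every comparison, Itgae with between 22 and 337 reads per library.

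**Figure D1:**
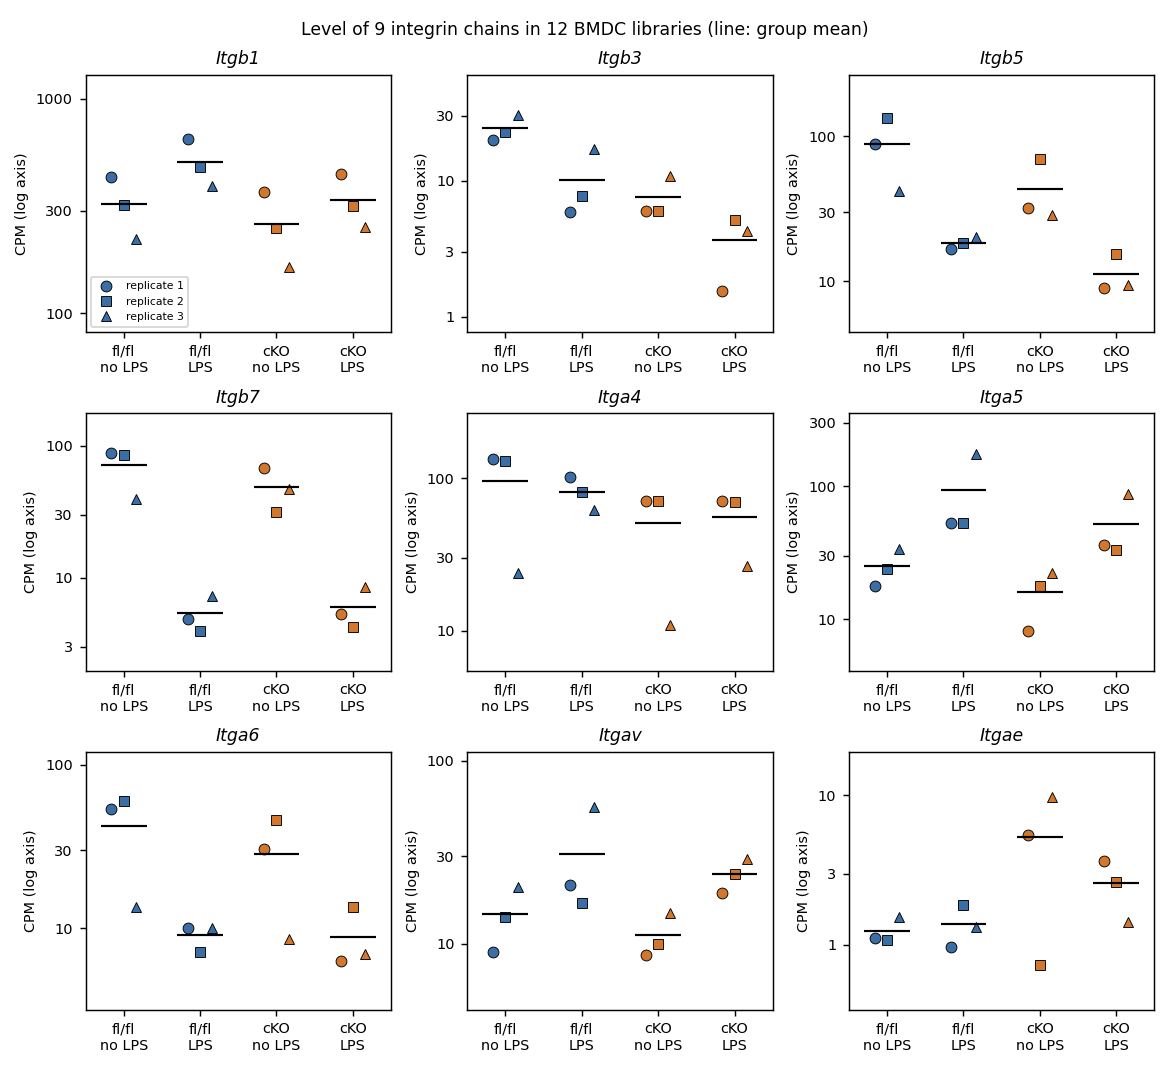
Level (CPM, log axis) of each of the 9 integrin chains in the 12 libraries, by group (blue CD18fl/fl, orange CD18CD11c cKO; circle, square and triangle for replicates 1, 2 and 3; line for the group mean). Itgb3 in unstimulated CD18CD11c cKO libraries lay at 5.98, 5.97 and 10.8 CPM, below all unstimulated CD18fl/fl libraries, and Itgb7 lay between 3.94 and 8.45 CPM in every LPS library.

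Genotype was first compared in unstimulated BMDCs. None of the 9 chains reached an adjusted p under 0.05 in edgeR's quasi-likelihood test without the block, where 0.0% of 12876 genes were called, with 2159 at an unadjusted p under 0.05. DESeq2 called 6.03% of genes and 1 chain (Itgb3) without a block, and 26.4% of genes and 6 chains with it. An offset for exon length added to the edgeR block left 13.1% of genes and 3 chains. With the block, 5 of the 9 were called lower in CD18CD11c cKO BMDCs and 0 higher, where 8.16% of all genes were called lower and 12.1% higher. The median log2 fold change of the 9 chains was -0.56 with the block, against -0.07 over all genes tested. With the exon length offset added to the block it was -0.46, against -0.04. In that fit the median was -0.66 for the β chains and -0.29 for the α chains. Without the block, scaling to library size alone moved the median over all genes to -0.44, in place of -0.05 with TMM factors. Over all 12 libraries these factors were 1.21, 1.26 and 1.26 in CD18fl/fl and 0.94, 0.948 and 1.07 in CD18CD11c cKO cells. All 3 same-numbered pairs were lower for 7 chains, a pattern shown by 33.9% of all genes, and 0 chains were higher in all pairs (24.0% of all genes).

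Itgb3 (ENSMUSG00000020689, chromosome 11, 104498826 to 104561302), the partner of αv in the vitronectin receptor, had the clearest difference. It was detected at 19.9, 22.6 and 30.1 CPM in CD18fl/fl and at 5.98, 5.97 and 10.8 CPM in CD18CD11c cKO cells. Every CD18CD11c cKO library thus lay below every CD18fl/fl library, which was the case for 13.1% of all genes tested and for no other chain. In the opposite direction, 0 chains and 11.7% of genes were free of overlap. The level was 3.06-fold lower without the block (log2 difference -1.61, SE 0.32, edgeR adjusted p = 0.1) and the block gave -1.65 (SE 0.18, adjusted p = 0.00318). DESeq2 called Itgb3 without a block, and it was also called with the exon length offset and the block, with replicates 1 and 2 alone, and with any 1 replicate number left out under the block (log2 difference between -1.77 and -1.55). Platelets express Itgb3 together with Itga2b. Itga2b had 3.11, 4.82 and 3.50 CPM in CD18fl/fl and 2.74, 3.17 and 10.5 CPM in CD18CD11c cKO cells. The 7 megakaryocyte or platelet markers summed to 70.5 to 145 CPM and 57.0 to 169 CPM, respectively, and of these Gp1bb and Gp9 had no reads in the unstimulated CD18CD11c cKO group. Their part in the result was not tested.

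Itgb5 (ENSMUSG00000022817, chromosome 16, 33650035 to 33769708), which also pairs with αv, ran at 89.0, 134 and 42.2 CPM in CD18fl/fl and at 32.1, 69.6 and 28.9 CPM in CD18CD11c cKO libraries. The groups overlapped, but each CD18CD11c cKO library was below its same-numbered CD18fl/fl library. Accordingly, the log2 difference of -0.97 (SE 0.51, edgeR adjusted p = 0.386) became a call with the block (-0.93, SE 0.20, adjusted p = 0.0196). It was lost under the block when replicate 1 or replicate 2 was left out, where 171 of 13082 and 65 of 12978 genes were called lower.

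Itga4 (ENSMUSG00000027009, chromosome 2, 79085770 to 79163467) encodes the α4 chain of the VCAM-1 receptor. Values were 132, 130 and 24.1 CPM in CD18fl/fl and 71.2, 70.9 and 11.0 CPM in CD18CD11c cKO cells, with replicate 3 far below the other two in both genotypes, as was the summed level of type 1 dendritic cell markers, whose part in this was not tested. The 3 pairs differed by nearly the same ratio (log2 ratios of CPM + 1 of -0.89, -0.87 and -1.07). The log2 difference with the block was -0.91 (SE 0.14, edgeR adjusted p = 0.00622), and -0.86 (SE 0.84, adjusted p = 0.643) without it. The call was kept with any 1 replicate number left out under the block and with the exon length offset added. Part of the Itga4 locus is overlapped by Cerkl on the opposite strand, which had 6 to 100 reads per library.

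Itga5 (ENSMUSG00000000555, chromosome 15, 103252713 to 103275190), the α chain of the fibronectin receptor, had 17.8, 24.0 and 33.7 CPM in CD18fl/fl and 8.22, 17.9 and 22.4 CPM in CD18CD11c cKO cells. Itga6 (ENSMUSG00000027111, chromosome 2, 71575960 to 71688760), which forms laminin receptors, had 53.8, 59.7 and 13.4 CPM and 30.5, 45.9 and 8.62 CPM, respectively. Both groups overlapped for either gene, and both were lower in all 3 pairs. With the block, the log2 difference was -0.64 for Itga5 (SE 0.19, edgeR adjusted p = 0.0481) and -0.56 for Itga6 (SE 0.15, adjusted p = 0.0415). Neither call remained with the exon length offset in addition to the block. With replicate 3 left out under the block, Itga6 was called and Itga5 was not, and neither was called without replicate 1 or without replicate 2. Over all genes, 1544 of 13068 were called lower without replicate 3, 171 of 13082 without replicate 1 and 65 of 12978 without replicate 2.

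The other chains did not pass the test with or without the block in edgeR. Itgb1 (ENSMUSG00000025809, chromosome 8, 129412135 to 129459681) had 431, 321 and 221 CPM in CD18fl/fl and 369, 249 and 163 CPM in CD18CD11c cKO cells. Each pair was lower, by log2 ratios between -0.43 and -0.22, and the 95% interval of the log2 difference with the block ran from -0.59 to 0.02. For Itgav (ENSMUSG00000027087, chromosome 2, 83554741 to 83637260) the values were 9.05, 13.9 and 20.4 CPM against 8.72, 10.0 and 14.7 CPM, with a 95% interval from -0.71 to 0.15 with the block. Itgb7 (ENSMUSG00000001281, chromosome 15, 102124430 to 102140379) had 87.6, 85.3 and 39.2 CPM in CD18fl/fl against 67.2, 31.6 and 46.8 CPM in CD18CD11c cKO cells. Its pairs differed in direction, with replicate 3 higher and the others lower, and without replicate 3 the block gave a lower level (-0.85, adjusted p = 0.0307). That fit called 1544 of 13068 genes lower and 1943 higher.

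Itgae (ENSMUSG00000005947, chromosome 11, 72981409 to 73038272), which encodes CD103, was the only chain with a positive estimate. It had 1.11, 1.08 and 1.52 CPM in CD18fl/fl and 5.41, 0.734 and 9.74 CPM in CD18CD11c cKO libraries, where replicate 2 was below all CD18fl/fl libraries and the others were above them. The log2 difference was 2.15 (SE 0.84, edgeR adjusted p = 0.267) without and 1.65 (SE 0.66, adjusted p = 0.116) with the block. Itgae was called higher by DESeq2 with the block, and by edgeR with the block when replicate 2 was left out (2.54, adjusted p = 0.035). The latter fit called 386 of 12978 genes higher and 65 lower. Haspin lies within Itgae on the opposite strand and had 38 to 121 reads per library. The library kit is not named as strand-specific, so that reads from either gene may not be told apart where they overlap.

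**Figure D2:**
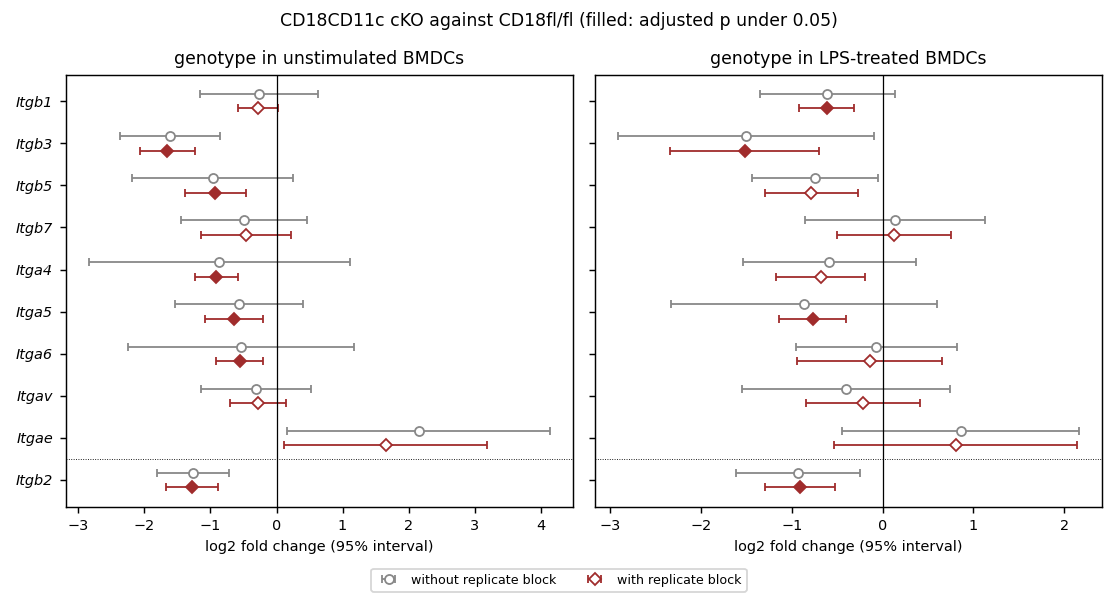
Log2 fold change of CD18CD11c cKO against CD18fl/fl with its 95% interval for the 9 chains and for Itgb2 (below the dotted line), in unstimulated (left) and LPS-treated (right) BMDCs, without (gray) and with the replicate block (red). Filled symbols mark an adjusted p under 0.05 in edgeR. In unstimulated cells 8 of the 9 chains lay left of 0, and Itgae lay at 2.15 without the block.

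In LPS-treated BMDCs the genotypes were compared in the same way. Without the block 0 of the 9 chains and 0.0% of 12441 genes were called by edgeR, with 1212 genes at an unadjusted p under 0.05. DESeq2 called 1.3% of genes and 0 chains without a block and 17.1% of genes and 5 chains with it, and edgeR with the length offset and block called 8.66% of genes and 2 chains. With the block, 3 of the 9 were lower in CD18CD11c cKO BMDCs and 0 were higher, against 3.16% of all genes lower and 6.98% higher. The median log2 fold change of the chains was -0.62 with the block, against -0.09 for all genes. With the exon length offset added to the block it was -0.49, against -0.07. In that fit the median was -0.59 for the β chains, whereas that of the α chains, -0.04, was near that of all genes. Scaling to library size alone, without the block, moved the median over all genes to -0.37, in place of -0.11 with TMM factors. These factors were 0.97, 0.881 and 1.16 in CD18fl/fl and 0.791, 0.747 and 0.938 in CD18CD11c cKO cells. In all 3 pairs, 5 chains were lower (26.1% of all genes) and 2 were higher (23.1% of all genes).

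Itgb1 had 650, 480 and 391 CPM in LPS-treated CD18fl/fl and 447, 317 and 253 CPM in CD18CD11c cKO cells. The groups overlapped, while the 3 pairs were lower by a similar ratio (log2 ratios of -0.54, -0.60 and -0.63). With the block the log2 difference was -0.62 (SE 0.13, edgeR adjusted p = 0.0285), compared with -0.61 (SE 0.31, adjusted p = 0.592) without it. This call was not kept with the exon length offset, nor under the block without replicate 1 or without replicate 2. Without replicate 1 the block called 3 genes higher and 0 lower of 12805, so that no chain was called lower there. Without replicate 2 it called 203 higher and 25 lower of 12866, and without replicate 3, 883 and 517 of 12390.

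Itgb3 was lower again, with 5.88, 7.70 and 16.9 CPM in CD18fl/fl and 1.54, 5.16 and 4.27 CPM in CD18CD11c cKO cells. There was no overlap, which in this direction held for 8.09% of all genes and 2 chains, and in the other for 9.51% of genes and 0 chains. The block gave -1.52 (SE 0.35, edgeR adjusted p = 0.0391), and without the block it was -1.50 (SE 0.60, adjusted p = 0.497). The call was kept with the exon length offset and without replicate 2, and was lost without replicate 1 or replicate 3. The fit without replicate 1 called 0 of 12805 genes lower.

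Itga5 reached 52.9, 52.8 and 176 CPM in CD18fl/fl and 36.0, 33.4 and 87.6 CPM in CD18CD11c cKO cells, with replicate 3 above the others in both genotypes. The log2 difference was -0.77 with the block (SE 0.16, edgeR adjusted p = 0.0278), which held with the exon length offset, and -0.87 (SE 0.62, adjusted p = 0.71) without it. No fit with 1 replicate number left out under the block called Itga5, and the fit without replicate 1 called 0 of 12805 genes lower.

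Among the remaining chains, Itgb5 did not overlap between the genotypes, with 16.8, 18.4 and 20.3 CPM against 8.95, 15.4 and 9.39 CPM, but its adjusted p was 0.0635 with the block. Itga4 had 102, 81.6 and 61.5 CPM against 70.4, 69.7 and 26.5 CPM, lower in each pair (adjusted p = 0.0823 with the block). DESeq2 with the block called both Itgb5 and Itga4 lower. The chains higher in all 3 pairs were Itgb7, by log2 ratios between 0.09 and 0.18, and Itgae, by 1.24, 0.35 and 0.06, and neither passed the test (adjusted p = 0.801 and 0.402 with the block). Itga6 and Itgav differed in direction between pairs, and their 95% intervals with the block ran from -0.94 to 0.66 and from -0.85 to 0.41.

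To set the lower level of Itgb2 beside the other β chains, their levels per kb of exon were summed (Itgb1, Itgb3, Itgb4, Itgb5, Itgb6, Itgb7 and Itgb8), as a description without a test. In unstimulated CD18fl/fl BMDCs the sum was 173, 157 and 88.7 CPM per kb, and in CD18CD11c cKO BMDCs it was 130, 97.2 and 69.4 CPM per kb, lower in each pair. After LPS the sums were 177, 133 and 113 CPM per kb in CD18fl/fl and 122, 89.8 and 72.7 CPM per kb in CD18CD11c cKO cells, again lower in each pair. Thus, the sum of the other β chains was not above that of the same-numbered CD18fl/fl library in any CD18CD11c cKO library. As a share of all β chain mRNA, Itgb1 made up 37.1%, 28.0% and 26.7% in unstimulated CD18fl/fl and 55.9%, 42.3% and 31.9% in CD18CD11c cKO cells. This share was higher in each pair, while the level of Itgb1 itself was lower in each. After LPS, Itgb1 made up 62.4% ± 11.2 (SD, n = 3) of β chain mRNA in CD18fl/fl and 66.2% ± 7.17 (SD, n = 3) in CD18CD11c cKO cells.

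**Figure D3:**
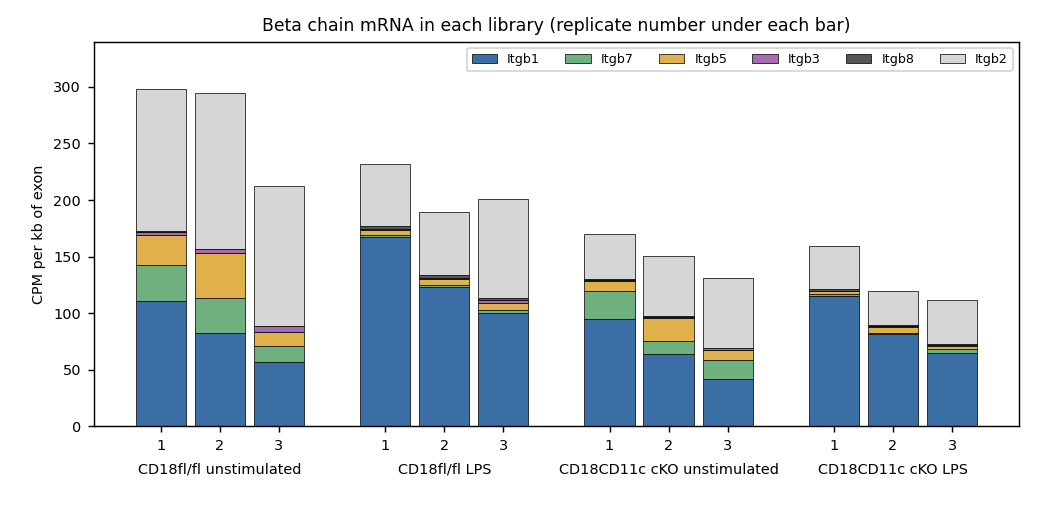
Level of the β chain genes (CPM per kb of exon, stacked) in each of the 12 libraries, with the replicate number under each bar. Itgb2 is gray, and Itgb4 and Itgb6, at most 0.0369% of the sum, are not drawn. In unstimulated CD18CD11c cKO libraries the chains other than Itgb2 sum to 69.4 to 130 CPM per kb, against 88.7 to 173 in CD18fl/fl.

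The response to LPS was then compared within each genotype. Both comparisons called Itgb7 and Itgb5 lower without the block, and no chain higher. In CD18fl/fl BMDCs edgeR called 2 of the 9 chains and 3.89% of 12744 genes, 2.06% higher and 1.83% lower. In CD18CD11c cKO BMDCs it called 2 of the 9 and 3.99% of 12687 genes, 2.23% higher and 1.76% lower. With the block, 3 chains were lower and 1 higher in CD18fl/fl cells, where 6.43% of all genes were lower and 6.33% higher, and 3 were lower and 2 higher in CD18CD11c cKO cells, where 9.93% were lower and 10.2% higher. DESeq2 called 12.8% and 10.7% of genes in the respective genotypes without a block (4 chains each) and 22.7% and 24.2% with it (7 and 5 chains), and edgeR with the length offset and block called 14.3% and 21.1% (6 and 5 chains). Groups did not overlap for 1 higher and 4 lower chains in CD18fl/fl (13.6% and 15.9% of genes) and for 2 higher and 3 lower in CD18CD11c cKO cells (14.8% and 13.4% of genes). In all 3 pairs, 3 chains were higher and 4 lower in either genotype (25.5% and 29.2% of genes in CD18fl/fl, 30.1% and 27.4% in CD18CD11c cKO). Scaling to library size alone moved the median over all genes to -0.32 and -0.23 on the log2 scale, in place of -0.01 in both genotypes, and it called 143 genes higher and 304 lower in CD18fl/fl, in place of 263 and 233, and 186 and 300 in CD18CD11c cKO cells, in place of 283 and 223. The directions of Itgb7, Itgb5, Itgb3, Itga6, Itga5, Itgav and Itgb1 were the same under this scaling.

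Itgb7 fell most. In CD18fl/fl BMDCs it went from 87.6, 85.3 and 39.2 CPM to 4.85, 3.94 and 7.32 CPM, and in CD18CD11c cKO BMDCs from 67.2, 31.6 and 46.8 CPM to 5.31, 4.27 and 8.45 CPM. No LPS library came near the unstimulated range in either genotype, and the replicate 3 pairs changed in the same direction as the others. The level was 13.1-fold lower in CD18fl/fl (log2 difference -3.71, SE 0.43, edgeR adjusted p = 0.0155) and 8.21-fold lower in CD18CD11c cKO cells (-3.04, SE 0.42, adjusted p = 0.0198). These calls were kept with the block, with DESeq2, and with any 1 replicate number left out under the block. Without the block, leaving out any single library of replicates 1 or 2 raised the adjusted p above 0.05, to at most 0.098 and 0.101, with the log2 difference between -3.64 and -3.53 in CD18fl/fl and between -3.27 and -2.76 in CD18CD11c cKO cells. In CD18fl/fl these fits called 0 of 13158 to 13409 genes, so that no gene kept a call there. In CD18CD11c cKO cells they called at most 21 genes higher and 5 lower (of 13289). Leaving out a replicate 3 library kept the call in either genotype.

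Itgb5 fell from 89.0, 134 and 42.2 CPM to 16.8, 18.4 and 20.3 CPM in CD18fl/fl cells. In CD18CD11c cKO cells it fell from 32.1, 69.6 and 28.9 CPM to 8.95, 15.4 and 9.39 CPM. The ranges did not overlap in either genotype. The level was 4.77-fold lower in CD18fl/fl (log2 difference -2.25, SE 0.43, edgeR adjusted p = 0.0398) and 4.03-fold lower in CD18CD11c cKO cells (-2.01, SE 0.43, adjusted p = 0.0486), and with the block the adjusted p was 0.0246 and 0.00264. With the exon length offset but no block, the CD18CD11c cKO call was lost. Without the block, leaving out a library of replicate 1 or 2 ended the call in either genotype (adjusted p up to 0.168 and 0.175), as did leaving out the LPS library of replicate 3 in CD18CD11c cKO cells. Fits without a replicate 1 or 2 library called few or 0 genes, as given for Itgb7. The fit without that replicate 3 library called 545 genes higher and 488 lower of 13244. Under the block the Itgb5 call was lost in CD18fl/fl cells without replicate 2, where 256 of 13010 genes were called lower. The gene whose levels were most like those of Itgb5 over the 12 libraries was Csf1r, the M-CSF receptor (Pearson r of log2 CPM 0.984 among 13752 genes tested). The 10 macrophage markers, Csf1r among them, summed to 2017 to 2338 CPM in unstimulated and 1170 to 1379 CPM in LPS-treated CD18fl/fl libraries, and to 1855 to 2449 CPM and 554 to 943 CPM in CD18CD11c cKO libraries. Their part in the result was not tested.

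Itgb3 was lower after LPS in all 6 pairs, from 19.9, 22.6 and 30.1 CPM to 5.88, 7.70 and 16.9 CPM in CD18fl/fl and from 5.98, 5.97 and 10.8 CPM to 1.54, 5.16 and 4.27 CPM in CD18CD11c cKO cells. It was called in CD18fl/fl with the block (log2 difference -1.37, SE 0.27, edgeR adjusted p = 0.0281), but not without replicate 1 or replicate 2. In CD18CD11c cKO cells the adjusted p was 0.0862 with the block.

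Itga6 was lower in all 6 pairs as well, but much less so in replicate 3. In CD18fl/fl cells the values were 53.8, 59.7 and 13.4 CPM before and 10.1, 7.18 and 10.1 CPM after LPS, and in CD18CD11c cKO cells 30.5, 45.9 and 8.62 CPM before and 6.32, 13.4 and 6.89 CPM after. The log2 ratios of CPM + 1 were -2.31, -2.89 and -0.38 in CD18fl/fl, and -2.11, -1.70 and -0.28 in CD18CD11c cKO cells. With the block, Itga6 was called in CD18CD11c cKO (-1.52, SE 0.39, edgeR adjusted p = 0.0373) and not in CD18fl/fl cells (-1.98, SE 0.54, adjusted p = 0.0625). Without replicate 3 the block gave -2.73 in CD18fl/fl and -2.12 in CD18CD11c cKO cells, with a call in both, whereas the CD18CD11c cKO call was lost without replicate 1 or replicate 2. The fits without replicate 3 called 3275 of 12924 genes lower in CD18fl/fl and 2039 of 12872 in CD18CD11c cKO cells. DESeq2 called Itga6 lower in both genotypes without a block. Between 29.6% and 33.4% of Itga6 reads lay in introns, depending on the group, against at most 5.65% for Itgb1, Itgb3, Itgb5, Itga4, Itga5 and Itgav. For Itgb7 the share reached 10.9%, in LPS-treated CD18CD11c cKO cells. The lncRNA genes Gm13662 and Gm13663 lie within Itga6 on the same strand. Their deposited exon length was 0 bases, so that their 0 assigned reads do not measure their expression. Their part in the intron reads was not tested. Intron reads of Itga6 were lower as well after LPS, from 16.5, 17.4 and 3.66 CPM to 2.63, 3.12 and 3.43 CPM in CD18fl/fl cells.

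Itga5 lay higher after LPS without overlap in both genotypes, as Itgb5 and Itgb7 did in the other direction. It went from 17.8, 24.0 and 33.7 CPM to 52.9, 52.8 and 176 CPM in CD18fl/fl and from 8.22, 17.9 and 22.4 CPM to 36.0, 33.4 and 87.6 CPM in CD18CD11c cKO cells. The block gave 1.70 (SE 0.30, edgeR adjusted p = 0.0219) and 1.62 (SE 0.29, adjusted p = 0.011), whereas without it the adjusted p was 0.103 and 0.134. DESeq2 called it higher in both genotypes without a block. Under the block it was called in CD18fl/fl cells with any replicate number left out, and in CD18CD11c cKO cells it was lost without replicate 1.

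Itgav followed a course like that of Itga5 (Pearson r of log2 CPM 0.934 over the 12 libraries, which share groups and replicate numbers). It changed from 8.72, 10.0 and 14.7 CPM to 19.0, 24.0 and 29.0 CPM in CD18CD11c cKO cells, without overlap, and the block gave 1.07 (SE 0.19, edgeR adjusted p = 0.0108), a call that was lost without replicate 1 or replicate 2. In CD18fl/fl cells, from 9.05, 13.9 and 20.4 CPM to 20.8, 16.8 and 55.7 CPM, the ranges overlapped and the adjusted p was 0.0794 with the block. The chain thus lay higher after LPS in all 6 pairs. Of the genes for β chains that pair with αv, Itgb1 and Itgb8 also lay higher in all 6 pairs, and Itgb3 and Itgb5 lay lower in all 6.

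Itgb1 was higher after LPS in all 6 pairs, from 431, 321 and 221 CPM to 650, 480 and 391 CPM in CD18fl/fl and from 369, 249 and 163 CPM to 447, 317 and 253 CPM in CD18CD11c cKO cells. Replicate 1 had the highest and replicate 3 the lowest value in each group, and the ranges overlapped. The adjusted p with the block was 0.082 and 0.196. In CD18fl/fl cells Itgb1 was called higher by edgeR with the exon length offset and the block, by DESeq2 with the block, and under the block without replicate 3 (0.58, adjusted p = 0.0195). The fit without replicate 3 called 3096 of 12924 genes higher and 3275 lower.

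Itga4 did not move in 1 direction. In CD18fl/fl cells it was lower in replicates 1 and 2 (132 and 130 to 102 and 81.6 CPM) and higher in replicate 3 (24.1 to 61.5 CPM), and without replicate 3 it was called lower (-0.53, edgeR adjusted p = 0.0246 with the block). That fit called 3275 of 12924 genes lower and 3096 higher. In CD18CD11c cKO cells, replicates 1 and 2 were nearly the same before and after LPS (71.2 and 70.9 against 70.4 and 69.7 CPM), whereas replicate 3 went from 11.0 to 26.5 CPM. Itgae stayed low in CD18fl/fl cells (0.963, 1.86 and 1.32 CPM after LPS) and varied without a shared direction in CD18CD11c cKO cells (3.65, 2.65 and 1.42 CPM after LPS). In LPS-treated CD18fl/fl libraries, 28.0% of the Itgae reads lay in introns.

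**Figure D4:**
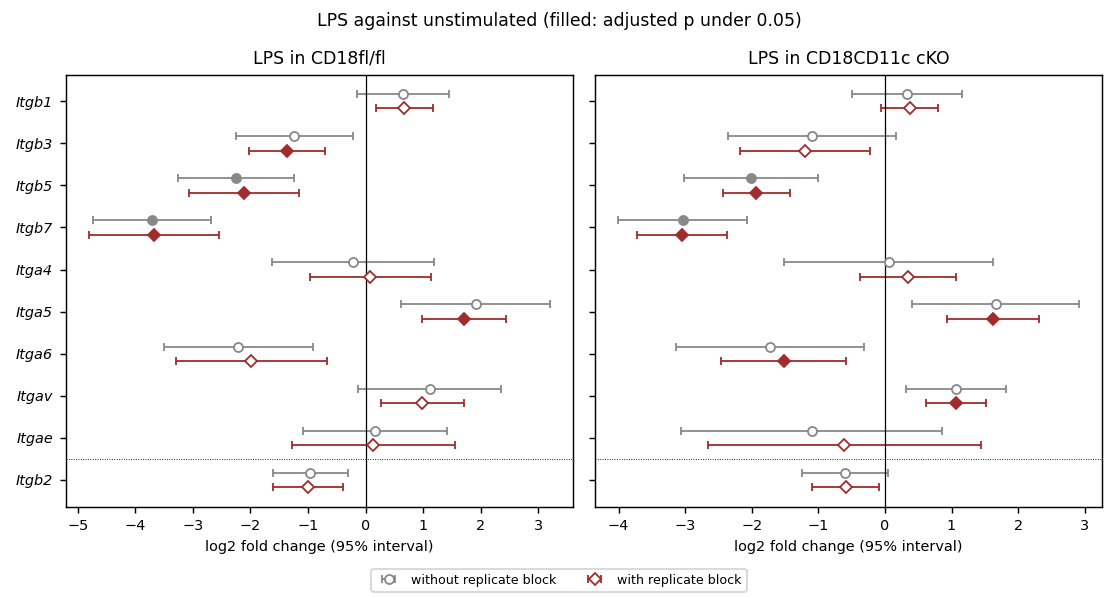
Log2 fold change of LPS-treated against unstimulated BMDCs with its 95% interval for the 9 chains and for Itgb2 (below the dotted line), in CD18fl/fl (left) and CD18CD11c cKO cells (right), without (gray) and with the replicate block (red). Filled symbols mark an adjusted p under 0.05 in edgeR. Itgb7 (-3.71 and -3.04) and Itgb5 (-2.25 and -2.01) are filled in both fits and both genotypes, and Itga5 with the block.

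Whether LPS acted differently in the 2 genotypes was tested as the interaction over all 12 libraries. By edgeR, 0 of the 9 chains and 0.0% of 13752 genes were called without or with the block, with 97 and 272 genes at an unadjusted p under 0.05. DESeq2 called 0.0% of genes without and 0.625% of genes with the block, with 0 of the 9 chains in either fit. The interaction estimates (response of CD18CD11c cKO less that of CD18fl/fl, log2 scale, no block) ran from -1.20 for Itgae (95% interval -3.46 to 1.06) to 0.70 for Itgb7 (95% interval -0.54 to 1.95). The LPS responses of the chains were thus not shown to differ between the genotypes, within the width of these intervals. EdgeR with the length offset and block called 0.0% of genes and 0 chains.

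Of the 12 integrin chains that pair outside the CD18 group and are not among the 9, between 5 and 7 passed the low-count filter in the 4 comparisons. Between genotypes 0 of the 5 tested were called with or without the block. Itga1, a collagen receptor chain, fell with LPS under the block in both genotypes (-1.76, SE 0.23, edgeR adjusted p = 0.00923 and -1.74, SE 0.22, adjusted p = 0.00398). It went from 23.1, 23.0 and 50.9 CPM to 7.80, 5.54 and 15.9 CPM in CD18fl/fl cells. Itgb8, whose product activates latent TGF-β together with αv, lay higher after LPS in all 6 pairs. It had 7.52, 2.91 and 0 CPM before and 19.2, 16.5 and 10.7 CPM after LPS in CD18fl/fl, and 4.27, 3.00 and 0.26 CPM before and 17.2, 12.8 and 10.1 CPM after in CD18CD11c cKO cells. With the block it was called in CD18CD11c cKO (2.82, SE 0.65, adjusted p = 0.0261) and not in CD18fl/fl cells (adjusted p = 0.125). Itga2b, Itga3 and Itga9, tested in all 4 comparisons, and Itga10 and Itgb4, tested for LPS in CD18fl/fl, were not called in edgeR without or with the block. All of these but Itga2b had at most 1.74 CPM in any library.

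The CD18 group itself was measured for comparison. In both states Itgb2 was called lower with the block (adjusted p = 0.00392 and 0.0201), and 0 of its 4 α chains were called between genotypes. With LPS, Itgam and Itgax fell with the block in both genotypes.

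Genes for ligands of the 9 chains were read from a list of 32, of which 18 were tested in unstimulated and 15 in LPS-treated BMDCs between genotypes. Without the block 0 were called. With it, 5 of 18 were lower and 0 higher in unstimulated cells, where 8.16% of all genes were lower and 12.1% higher, and 2 of 15 were lower and 2 higher after LPS, where 3.16% of all genes were lower and 6.98% higher. Thbs1 (thrombospondin-1, a ligand of αvβ3 among others) had 458, 705 and 618 CPM in unstimulated CD18fl/fl and 94.9, 204 and 87.0 CPM in CD18CD11c cKO cells (-2.24, SE 0.20, edgeR adjusted p = 0.00298 with the block). Tgfbi, a secreted matrix protein, and Adam15, a membrane metalloproteinase, were lower as well in unstimulated cells (-1.06 and -0.89 with the block). Among LPS-treated cells, the ligands called higher in CD18CD11c cKO with the block were Edil3, a ligand of αv integrins, and Spp1 (osteopontin). Edil3 had 2.63, 1.26 and 0.280 CPM in CD18fl/fl and 6.69, 6.24 and 0.971 CPM in CD18CD11c cKO cells (1.77, SE 0.42, adjusted p = 0.0428). Spp1 had 310, 365 and 1326 CPM against 601, 609 and 1645 CPM (0.64, SE 0.16, adjusted p = 0.0464), and its call was lost with the exon length offset added, as was that of Adam15 after LPS (-1.06, adjusted p = 0.0413). Cdh1 (E-cadherin), the ligand of CD103, fell with LPS from 33.7, 26.8 and 93.6 CPM to 1.61, 1.60 and 5.69 CPM in CD18fl/fl cells (-4.09, SE 0.75, adjusted p = 0.0366). In CD18CD11c cKO cells Cdh1 missed the threshold without the block (adjusted p = 0.0717) and was called lower with it (-3.81, SE 0.48, adjusted p = 0.00377).

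Of 24 genes for proteins that bind integrin tails, 22 were tested. Between genotypes 0 were called without the block, and with it 3 of 22 were higher and 4 lower in unstimulated cells (12.1% and 8.16% of all genes), and 2 were higher and 1 lower after LPS (6.98% and 3.16% of all genes). Itgb1bp1 (ICAP-1), which binds the β1 tail and opposes its activation, had 53.8, 39.0 and 76.2 CPM in unstimulated CD18fl/fl and 124, 100.1 and 151 CPM in CD18CD11c cKO cells. It was higher without overlap also after LPS, with 73.7, 94.4 and 71.2 CPM against 180, 207 and 153 CPM. With the block the log2 differences were 1.24 (SE 0.14, edgeR adjusted p = 0.00318) and 1.15 (SE 0.14, adjusted p = 0.00709). Ptk2 (focal adhesion kinase) was higher and Pxn (paxillin) lower in unstimulated CD18CD11c cKO cells with the block (1.08 and -0.61), and the Pxn call was lost with the exon length offset added. With LPS, Parvg (γ-parvin) fell in both genotypes without the block (-1.80, adjusted p = 0.0187 and -2.42, adjusted p = 0.0239), as did Flna (filamin A) in CD18CD11c cKO cells (-1.14, adjusted p = 0.0461).

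The 10 genes for membrane partners of integrins were all tested. Between genotypes 0 were called without the block, and with it 2 of 10 were higher and 2 lower in each state, against 12.1% and 8.16% of all genes in unstimulated cells and 6.98% and 3.16% after LPS. Cd9, a tetraspanin that associates with β1 integrins, had 732, 608 and 562 CPM in unstimulated CD18fl/fl and 1279, 1469 and 1145 CPM in CD18CD11c cKO cells (1.09, SE 0.16, edgeR adjusted p = 0.00518 with the block). After LPS it was 548, 565 and 341 CPM against 1221, 1509 and 573 CPM (1.08, SE 0.16, adjusted p = 0.0115 with the block). Cd63, another tetraspanin, was called higher with the block in unstimulated cells (0.84, adjusted p = 0.0183), a call that was lost with the exon length offset added. Cd81 and Slc3a2 (CD98), both also partners of β1, were called lower with the block after LPS (-0.68 and -0.74).

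For each chain, the genes whose log2 CPM was most correlated over the 12 libraries were listed as a description, since the libraries share groups and replicate numbers. Besides Csf1r, the transcription factor gene Fos came second for Itgb5 (r = 0.973). Itgb7 was closest to Ppfia4 (r = 0.989) and Gusb (r = 0.984), Itgb3 to Xpc (r = 0.982) and Ppp1r12c (r = 0.977), and Itgb1 to Gpn2 (r = 0.971) and Zfp638 (r = 0.957). Among α chains, Itga4 was closest to Gpc1 (r = 0.984) and Adcy6 (r = 0.979), Itga5 to Ptpn1 (r = 0.984) and Cpeb4 (r = 0.970), and Itga6 to Ube2d1 (r = 0.979) and Egf (r = 0.972). Itgav was closest to Nlgn2 (r = 0.968) and Zfp871 (r = 0.964). Itgae had the lowest such value, with Mlf1 at r = 0.905. Among the chains themselves, Itgb5 and Itga6 had an r of 0.905 and Itgb7 and Itga5 of -0.69.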

How the data were processed

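RNA-seq libraries of MHCII+ BMDCs were mapped and counted by the authors in CLC Genomics Workbench against GRCm39, as named in the methods and matched by the gene positions in the tables (the processing notes name GRCm38). The authors deposited raw read counts for each gene (total, unique, exon and intron reads), TPM and the exon length of each gene (in bases) per library, without pooling. Total gene reads were tested with edgeR 4.0.16 in R 4.3.3 (quasi-likelihood, TMM, minimum count 10, Benjamini-Hochberg over all genes tested, threshold 0.05) on the 6 libraries of a comparison, and on all 12 for the interaction. SE is the size of the log2 fold change divided by the square root of F, and 95% intervals use the t distribution with the degrees of freedom of the fit. The floor of 3 reads was 0.0881 to 0.101 CPM per library and covers counting error only, since no molecular identifiers are named in the protocol.

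Replicate numbers come from the labels. Deviations from the group means of same-numbered libraries correlated by 0.28 to 0.802 in all 12 pairs over the 4 comparisons, so that the numbers were taken to pair the libraries. Between replicates 1 and 2, deviations of different-numbered libraries also correlated (0.213 to 0.482), and for LPS in CD18fl/fl these values (0.408 and 0.307) exceeded that of the replicate 2 pair (0.28), while replicate 3 correlated negatively with both in all comparisons. Alternatives were DESeq2 1.42.0, RLE factors, library size scaling, no filter, unique gene reads, the replicate block, an offset for exon length (lowess, span 0.3), replicates 1 and 2 alone, all 12 libraries in 1 fit, and each library left out. The block on all 12 libraries and with each replicate number left out was added after the values had been seen. The procedure was also run on simulated counts, with the same dispersion for every gene and no trend with exon length. The outcome is not reported here and is not used as support. Levels per kb divide CPM by the deposited exon length, and log2 ratios of pairs use a pseudocount of 1 CPM. The 9 chains and the lists were chosen with earlier results of these data known. Named are all 9 chains, Itgb2 with its α chains, the tested other chains, up to 3 genes per list and comparison with the smallest p, and the 2 genes most correlated with each chain. Some results under this rule are not reported here. The markers named and Spp1 were picked with their values known. Sequences are from RefSeq and annotation from GENCODE vM39.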

Additional observations from a re-analysis of the deposited data

How the results depend on the processing

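For genotype in unstimulated BMDCs, the number of the 9 chains called was 0 in edgeR, with all 12 libraries in 1 fit, RLE factors, library size scaling, no filter, unique gene reads and the exon length offset, but 5 with the replicate block, 3 with the block and length offset, 1 with DESeq2, 6 with DESeq2 and the block, 2 with replicates 1 and 2 alone and 1 with the block on all 12 libraries. With 1 replicate number or library left out it was between 0 and 5. For genotype after LPS, it was 0 in edgeR and DESeq2, 3 with the block, 2 with the block and length offset, 5 with DESeq2 and the block and 1 with the block on all 12 libraries, and 0 to 1 with 1 replicate or library left out. For LPS in CD18fl/fl it was 2 in edgeR, 4 with DESeq2 or the block, 7 with DESeq2 and the block or the block on all 12 libraries, 6 with the block and length offset, 8 with replicates 1 and 2 alone and 0 to 8 with 1 left out. For LPS in CD18CD11c cKO it was 2 in edgeR, 4 with DESeq2 or replicates 1 and 2 alone, 5 with the block, alone or with the length offset or DESeq2, 6 with the block on all 12 libraries, 1 with the length offset alone and 0 to 5 with 1 left out. The interaction gave 0 in every fit. Over all genes, replicates 1 and 2 alone called 1034 higher and 349 lower of 13068 and 402 and 121 of 12390 between genotypes, and 3000 and 3140 of 12924 and 1021 and 1028 of 12872 for LPS in CD18fl/fl and CD18CD11c cKO. The block without replicate 3 called 1943 and 1544, 883 and 517, 3096 and 3275, and 2018 and 2039 of the same genes, in that order of comparisons, and the block on all 12 libraries 678 and 437, 504 and 119, 1670 and 1695, and 1621 and 1395 of 13752. With 1 library left out, 12785 to 13418 genes were tested, and the genotype fits called at most 1. For LPS in CD18fl/fl such fits called 0 to 1613 higher and 0 to 1655 lower. In CD18CD11c cKO they called 0 to 545 higher and 0 to 488 lower. The block without replicate 1 called 837 and 171, 3 and 0, 494 and 436, and 458 and 378, in that order of comparisons. Without replicate 2 it called 386 and 65, 203 and 25, 299 and 256, and 650 and 714. These tested 12805 to 13082 genes. The causes of these differences were not tested.

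Signs turned for the following log2 differences. In the genotype comparisons these were Itgav in unstimulated cells with the block and length offset (0.02), and after LPS Itgb7 with library size scaling (-0.12), Itga6 with the length offset with and without the block (0.04 and 0.13) and with replicates 1 and 2 alone (0.16), and Itgav with replicates 1 and 2 alone (0.16). For LPS in CD18fl/fl they were Itga4 with the block (0.08), with DESeq2 and the block (0.11), with the length offset and block (0.21) and with the block on all 12 libraries (0.16), and Itgae with library size scaling (-0.17). For LPS in CD18CD11c cKO they were Itga4 with library size scaling (-0.14), the length offset (-0.04) and replicates 1 and 2 alone (-0.12). With 1 library left out, the log2 difference for genotype after LPS ran from -0.22 to 0.42 for Itgb7, -0.49 to 0.12 for Itga6 and -0.66 to 0.32 for Itgav, for LPS in CD18fl/fl from -0.69 to 0.08 for Itga4 and -0.10 to 0.36 for Itgae, and for LPS in CD18CD11c cKO from -0.42 to 0.39 for Itga4. With 1 replicate number left out under the block, signs turned for genotype after LPS in Itga6 without replicate 1 (0.15) or 3 (0.08) and Itgav without replicate 3 (0.15), for LPS in CD18fl/fl in Itga4 without replicate 1 (0.34) or 2 (0.50) and Itgae without replicate 2 (-0.19), and for LPS in CD18CD11c cKO in Itga4 (-0.12) and Itgae (0.47) without replicate 3. Shares of the 9 chains in their summed level per kb from unique reads or deposited TPM stayed within 1 SD for 71 of 72 values. Depth limits Itgae most among the 9, with 22 reads in its lowest library.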
